A study of Mus musculus with 6 samples.

Results

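The 32 genes described here encode the contractile apparatus of smooth muscle. They comprise the actins and myosin of the motor, the enzymes that control myosin phosphorylation, thin filament regulators, and intermediate filament and dense body proteins. Ion channels, muscarinic receptors and transcription regulators complete the set. They were taken by gene name from the 23393 named genes of the count table, and all 32 were found there and passed the filter on low counts. The libraries came from 2 groups of C57BL/6 mice aged 12 weeks that carried floxed Prkci (PKClambda) and Prkcz (PKCzeta), the genes of the atypical protein kinases C. WT intestine (n = 3 mice) came from PKClambda f/f, PKCzeta f/f mice negative for Villincre. DKO tumours (n = 3 mice) were small intestinal tumours of PKClambda f/f, PKCzeta f/f mice positive for Villincre. Villincre is a Cre recombinase transgene under the Villin promoter, which is active in intestinal epithelium, so muscle cells are not its target. Both groups carried the floxed alleles, and genotype and tissue type changed together and cannot be told apart.

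Smooth muscle of the gut wall contracts when calcium activates myosin light chain kinase, which phosphorylates the regulatory light chain and lets smooth muscle myosin pull on actin filaments anchored at dense bodies. Acetylcholine from enteric nerves starts this through muscarinic receptors, and myosin phosphatase ends it. Many genes of the apparatus are controlled by serum response factor (SRF), which binds a short promoter sequence, the CArG box, and is assisted in smooth muscle by its cofactor myocardin. Several proteins of the set, among them filamin A, alpha-actinin, caldesmon and tropomyosin 1, are also made by fibroblasts, endothelium or epithelium.

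CArG boxes were looked for in RefSeq promoter windows (build GRCm38.p6, 250 bases before to 50 after a start site), since the gene set is known for them. A CArG box was taken as CC, then 6 letters that are each A or T, then GG, a class that reads the same on both strands. Of the 32 genes, 28 matched a window, all but Actg2, Myh11, Tagln and Myocd. Myl9, Ldb3 and Srf held a box, 3 of 28 (10.7%), against 1.81% of the 27025 genes with a window. When 1 of the 6 inner letters could be C or G, a choice made after seeing the data, 8 of 28 (28.6%) held a match, against 11.3% of all genes. The added genes were Acta2, Synm, Pdlim3, Cacna1c and Jph2. The stretches around the boxes of the 3 genes are printed 5′ to 3′ on the gene's strand, with capitals marking matches that have at most 1 inner C or G. Myl9 (regulatory light chain) lies at chr2:156775283-156775394 on the plus strand, Ldb3 (a Z-disc and dense body adaptor) at chr14:34588687-34588736 on the minus strand, and Srf at chr17:46556195-46556264 on the minus strand. A match describes letters only, and no binding was measured.
Myl9: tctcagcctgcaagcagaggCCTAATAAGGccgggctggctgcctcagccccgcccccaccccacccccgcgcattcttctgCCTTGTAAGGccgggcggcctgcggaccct
Ldb3: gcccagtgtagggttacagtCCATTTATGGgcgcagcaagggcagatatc
Srf: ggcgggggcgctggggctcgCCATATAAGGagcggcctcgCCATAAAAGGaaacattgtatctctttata

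Library totals ranged from 12491561 to 15799269 counts. Prkcz fell from a mean of 66.9 to 16.8 CPM, the counts of a gene scaled to library size (edgeR adjusted p = 0.000233). Prkci, at 70.6 and 93.9 CPM, did not pass the test (edgeR adjusted p = 0.134). The counts are per gene and of whole tissue, so neither result shows whether floxed exons were removed. The tumours also differed from each other in genes that mark position along the small intestine. Cybrd1, an iron reductase of the duodenum, was at 5.97 to 6.8 CPM in WT intestine, at 2190 and 460 CPM in DKO tumours 1 and 3, and at 11.9 CPM in DKO tumour 2. The bile acid transporter gene Slc10a2 of the ileum was at 46.8 CPM in DKO tumour 2 and at 0.865 to 2.67 CPM in the other 5 libraries. Whether the part of the gut sampled bears on the muscle genes was not tested.

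Across the set, 15 of the 32 genes fell in DKO tumours (46.9%), where 13.8% of all 13866 genes tested fell, and 2 rose (6.25%), where 15.9% of all genes rose. Changes were called at an adjusted p under 0.05 in edgeR's quasi-likelihood test. The falls took in Myh11, Actg2, Myl9, Mylk, Cnn1, Des, Synm and both muscarinic receptors, and the rises were Actn1 and Pdlim7. The other 15 genes did not pass the test, among them Acta2, Tagln, Tpm1, Cald1, Flna, Smtn, Myocd and Srf. The median log2 fold change (DKO tumour over WT intestine) was -0.66, beside 0.02 over all genes, and 25 of 32 were below 0, beside 6800 of 13866. Every tumour was below every WT library for 18 of the 32 genes (56.2%, against 22.9% of all genes) and above for 3 (9.38%, against 25.1%). In whole tissue, fewer muscle cells and less RNA per muscle cell cannot be told apart.

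**Figure D1:**
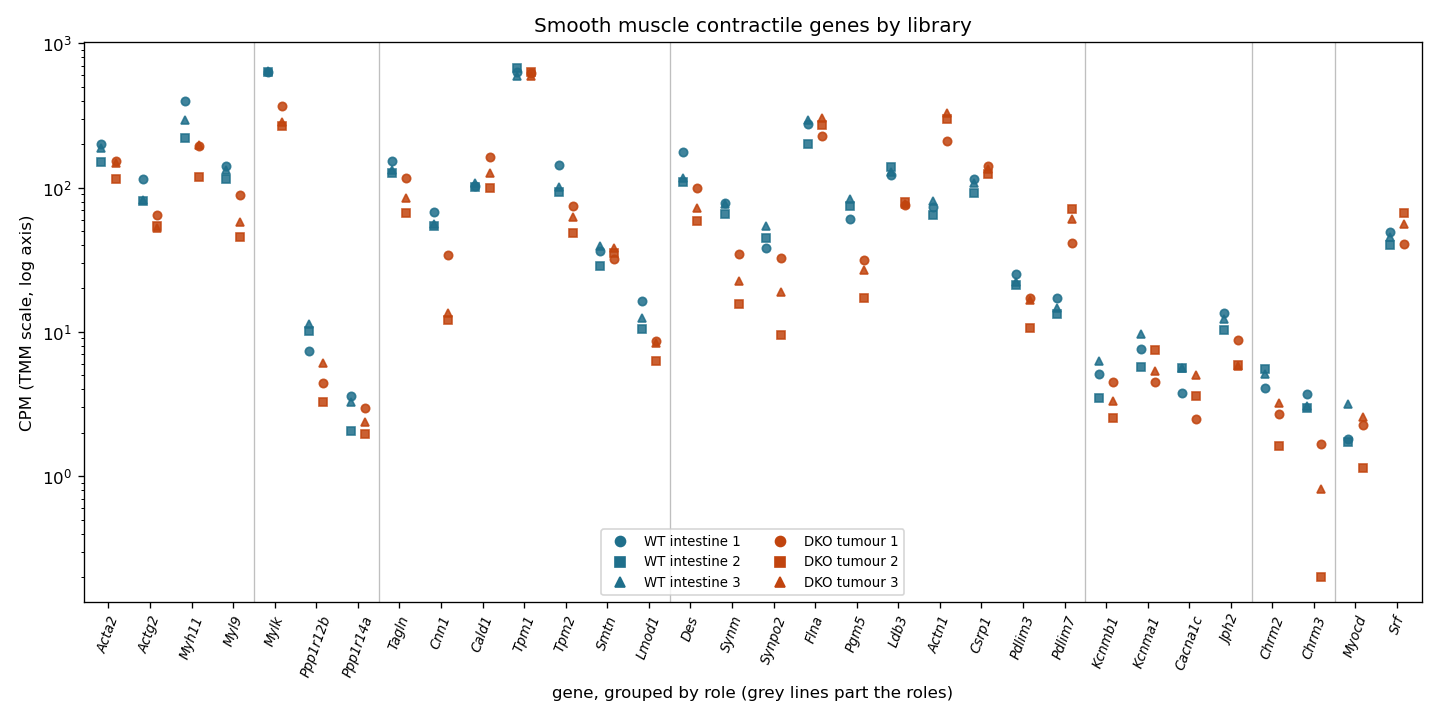
Level of each of the 32 genes in each library, in CPM on the TMM scale (log axis), with genes grouped by role along the horizontal axis and grey lines parting the roles. Points are single mice, 3 of WT intestine and 3 of DKO tumour. Chrm3 in DKO tumour 2, at 0.201 CPM, is the lowest point.

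The set as a whole took a similar share of each library. Its genes held 0.308%, 0.302% and 0.338% of the counts of WT intestine 1 to 3 and 0.323%, 0.279% and 0.304% of those of DKO tumours 1 to 3, so the groups overlapped. On the TMM scale, which allows for the different makeup of the libraries, the summed level was 3720, 3210 and 3460 CPM in WT intestine and 2910, 2560 and 2820 CPM in tumours, with no overlap. The choice of scale therefore decided whether the groups overlapped. By role, the summed level of the motor genes was 568 to 859 CPM in WT intestine and 335 to 501 CPM in tumours. The myosin phosphorylation genes stood at 646 to 656 against 275 to 376 CPM. Mylk alone held 635 to 642 against 269 to 369 CPM of this. The dense body and filament group stood at 827 to 981 against 911 to 1060 CPM. That sum includes Actn1, at 64.6 to 81.2 against 209 to 328 CPM. Of the group's 10 genes, 6 were lower and 3 higher in every tumour, so its sum does not stand for most of its genes.

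Of the 4 motor genes, 3 fell. Myh11, the smooth muscle myosin heavy chain (chromosome 16, 14194535 to 14291372, GRCm38), was at 401, 222 and 294 CPM in WT intestine 1 to 3 and at 194, 119 and 196 CPM in DKO tumours 1 to 3. The groups did not overlap, WT intestine 1 was the highest, and the mean level in tumours was 55.5% of WT (log2 fold change -0.85, SE 0.272, edgeR adjusted p = 0.0486). Actg2, the enteric smooth muscle actin (chromosome 6, 83512905 to 83536265), was at 115, 80.6 and 82.6 CPM in WT intestine and 64.6, 54.6 and 52.2 CPM in tumours. Its groups did not overlap, and WT intestine 1 stood apart as the highest (log2 fold change -0.70, SE 0.176, edgeR adjusted p = 0.0213). Myl9, the regulatory light chain (chromosome 2, 156775420 to 156781658), was at 141, 114 and 132 CPM in WT intestine and 89.3, 45.8 and 57.7 CPM in tumours. All tumours were lower, DKO tumour 2 the most, and the mean was 49.9% of WT (log2 fold change -1.0, SE 0.24, edgeR adjusted p = 0.018).

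Acta2, the smooth muscle actin that vessels, pericytes and myofibroblasts also make, did not pass the test. It was at 201, 151 and 188 CPM in WT intestine and at 153, 115 and 149 CPM in tumours. DKO tumour 1 exceeded WT intestine 2, so the groups overlapped (log2 fold change -0.38, SE 0.171, edgeR adjusted p = 0.134). Acta2 and Actg2 are near-identical proteins, but no 75-base stretch of their GENCODE M21 transcripts occurs in a transcript of another gene. The Myh11 call ended when any library but WT intestine 2 was left out (edgeR adjusted p = 0.0564 to 0.122), that of Actg2 without DKO tumour 2 or 3 (0.0658 to 0.0983) and that of Myl9 without WT intestine 3 or DKO tumour 3 (0.0514 to 0.0804).

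Among the myosin phosphorylation genes, the kinase and a phosphatase subunit fell. Mylk, myosin light chain kinase (chromosome 16, 34745210 to 35002420), was the most even gene of the set in WT intestine, at 635, 637 and 642 CPM. In the tumours it was at 369, 269 and 284 CPM, a mean of 48.2% of WT, and no tumour came near the WT range (log2 fold change -1.05, SE 0.174, edgeR adjusted p = 0.00438). The Mylk gene also gives a long kinase of non-muscle cells, which gene counts do not separate. Ppp1r12b, a targeting subunit of myosin phosphatase, was at 7.37, 10.2 and 11.4 CPM in WT intestine and 4.41, 3.29 and 6.08 CPM in tumours. The groups did not overlap (log2 fold change -1.08, SE 0.278, edgeR adjusted p = 0.0231). That call was lost when WT intestine 2, WT intestine 3, DKO tumour 1 or DKO tumour 2 was removed (edgeR adjusted p = 0.0506 to 0.0794). Ppp1r14a, an inhibitor of myosin phosphatase that protein kinase C phosphorylates, ranged from 2.05 to 3.59 CPM in WT intestine and from 1.95 to 2.98 CPM in tumours and did not pass the test (edgeR adjusted p = 0.525).

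**Figure D2:**
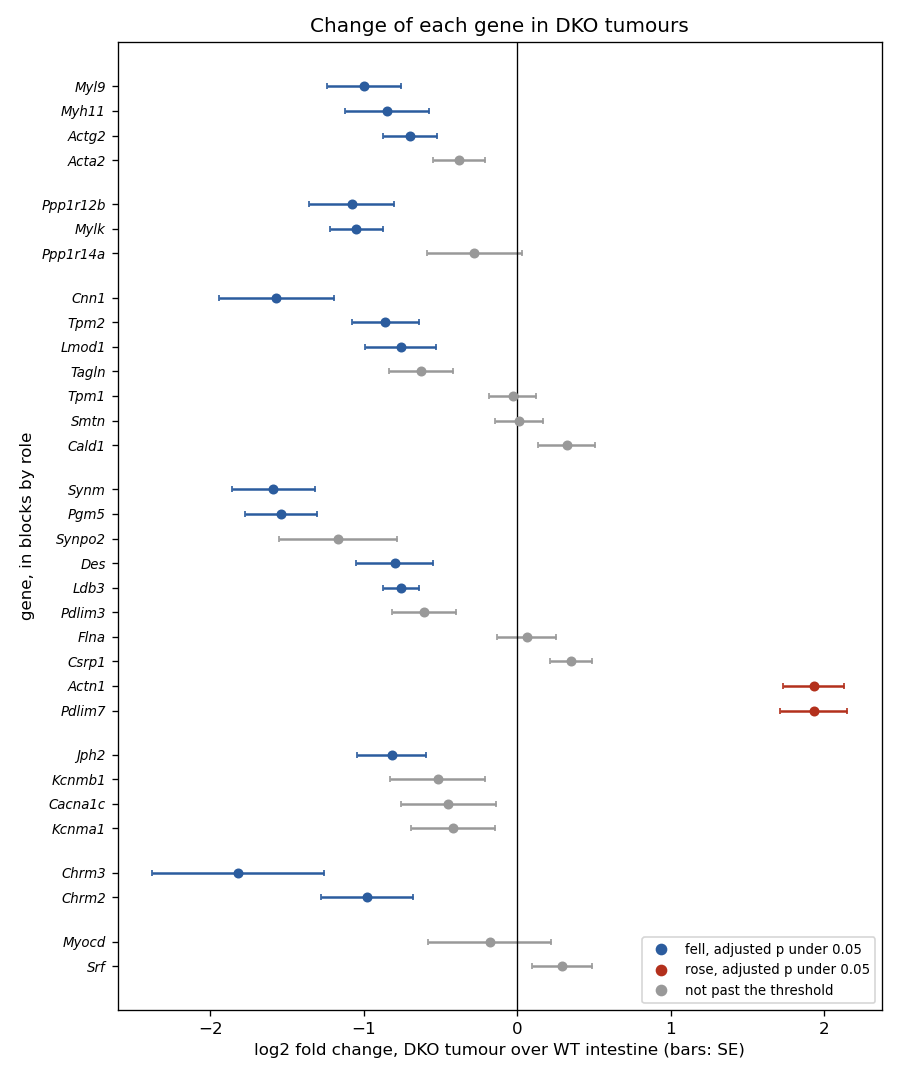
Log2 fold change of each gene in DKO tumours over WT intestine, with SE bars, in blocks by role; marker colours show whether the gene fell, rose or did not pass the test (edgeR adjusted p under 0.05). Actn1 and Pdlim7, both at 1.93, stand apart on the right, and Chrm3, at -1.82, lies farthest to the left.

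The thin filament regulators split. Cnn1, calponin 1 (chromosome 9, 22099216 to 22109630), was at 67.4, 54 and 55.8 CPM in WT intestine and at 33.9, 12.1 and 13.5 CPM in tumours. DKO tumours 2 and 3 sat far below DKO tumour 1, and all were below WT (log2 fold change -1.57, SE 0.376, edgeR adjusted p = 0.0179). Tpm2, the muscle beta-tropomyosin, was at 143, 92.7 and 101 CPM in WT intestine and at 74.3, 48.5 and 62.5 CPM in tumours. The groups did not overlap (log2 fold change -0.86, SE 0.217, edgeR adjusted p = 0.0213). Lmod1, leiomodin 1, which nucleates actin filaments, was at 16.5, 10.4 and 12.5 CPM in WT intestine and at 8.58, 6.31 and 8.37 CPM in tumours. All tumours were again lower (log2 fold change -0.76, SE 0.23, edgeR adjusted p = 0.0412). The Cnn1 call ended without DKO tumour 3 (edgeR adjusted p = 0.0698), that of Tpm2 without DKO tumour 2 or 3 (0.0621 to 0.0797) and that of Lmod1 without any library but WT intestine 2 (0.0526 to 0.12).

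Tpm1, which gives muscle and non-muscle tropomyosins from one gene, was at 631, 676 and 592 CPM in WT intestine and at 626, 637 and 595 CPM in tumours. The groups interleaved (log2 fold change -0.03, SE 0.153, edgeR adjusted p = 0.893), and the sign turned under other scalings. Cald1, caldesmon, was at 102, 101 and 108 CPM in WT intestine and at 163, 100 and 126 CPM in tumours. DKO tumours 1 and 3 exceeded every WT library and DKO tumour 2 did not (log2 fold change 0.32, edgeR adjusted p = 0.212). Smtn, smoothelin, was at 36.5, 28.7 and 39.2 CPM in WT intestine and at 32, 35 and 38.1 CPM in tumours. Its tumour range lay inside the WT range (log2 fold change 0.01, edgeR adjusted p = 0.966), and the sign turned under DESeq2 size factors.

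Tagln, transgelin, was at 154, 127 and 133 CPM in WT intestine and at 117, 67.1 and 84.1 CPM in tumours. The groups did not overlap, but the gene missed the threshold (log2 fold change -0.63, SE 0.208, edgeR adjusted p = 0.0542) and passed it when DKO tumour 1 was left out (edgeR adjusted p = 0.011). Exons of Pcsk7 and Gm48529 on the opposite strand cover 67.9% of the Tagln exon bases, and how strand was handled is not given in the sources used here. Pcsk7 was at means of 68.2 and 62.8 CPM in WT intestine and tumours (edgeR adjusted p = 0.566), and its share of the Tagln counts was not tested.

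The 10 intermediate filament, dense body and actin cross-linking genes held 4 falls and both rises. Synm, synemin, an intermediate filament protein that links desmin to the membrane (chromosome 7, 67730160 to 67759742), was at 77.6, 65.5 and 77.2 CPM in WT intestine and at 34.6, 15.6 and 22.7 CPM in tumours. Every tumour lay well under the WT range, and the mean was 33.1% of WT (log2 fold change -1.59, SE 0.27, edgeR adjusted p = 0.00479). Pgm5, a phosphoglucomutase-like protein of muscle adhesion sites (chromosome 19, 24683016 to 24861855), was at 61, 75 and 83.2 CPM in WT intestine and at 31.5, 17.2 and 26.7 CPM in tumours. The gap between the groups was again wide (log2 fold change -1.54, SE 0.235, edgeR adjusted p = 0.00312). Ldb3 (chromosome 14, 34526603 to 34588682), whose promoter box is printed above, was at 123, 140 and 129 CPM in WT intestine and at 76.1, 79.1 and 76.7 CPM in tumours. The tumours were nearly level with each other (log2 fold change -0.76, SE 0.117, edgeR adjusted p = 0.00333).

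Des, desmin, the muscle intermediate filament (chromosome 1, 75360329 to 75368579), was at 177, 109 and 117 CPM in WT intestine and at 99.9, 59.1 and 72.6 CPM in tumours. DKO tumour 1 lay just under the lowest WT library (log2 fold change -0.80, SE 0.251, edgeR adjusted p = 0.0457). With 1 library left out, the call held without DKO tumour 1 (edgeR adjusted p = 0.0216) and ended without any of the others (0.0628 to 0.149). Synpo2 (an actin-bundling protein) and Pdlim3 (an actinin-binding adaptor) had log2 fold changes of -1.17 and -0.61 with no overlap between groups and missed the threshold (edgeR adjusted p = 0.054 and 0.059). Both passed it without DKO tumour 1 (edgeR adjusted p = 0.00859 and 0.0472).

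Actn1, alpha-actinin 1, which cross-links actin at dense bodies and adhesions in many cell types (chromosome 12, 80167547 to 80260371), rose. It was at 73.2, 64.6 and 81.2 CPM in WT intestine and at 209, 298 and 328 CPM in tumours, a mean of 381% of WT. Even the lowest tumour was far above the highest WT library (log2 fold change 1.93, SE 0.2, edgeR adjusted p = 0.000674). Pdlim7, an actin-associated PDZ and LIM protein (chromosome 13, 55495795 to 55513676), was at 17.1, 13.4 and 14.7 CPM in WT intestine and at 41.3, 70.7 and 60.4 CPM in tumours. DKO tumour 2 was the highest and DKO tumour 1 the lowest of the tumours (log2 fold change 1.93, SE 0.219, edgeR adjusted p = 0.000946). Csrp1, a LIM protein of actin filaments, ran from 91.4 to 114 CPM in WT intestine and from 124 to 141 CPM in tumours. Its groups did not overlap, but it missed the threshold (log2 fold change 0.35, edgeR adjusted p = 0.0861), passing it as a rise under library totals and upper-quartile factors (lowest edgeR adjusted p = 0.0117). Flna, filamin A (X chromosome), was at 274, 202 and 292 CPM in WT intestine and at 227, 271 and 303 CPM in tumours. The groups interleaved (log2 fold change 0.06, edgeR adjusted p = 0.839), and the sign turned when single libraries were left out.

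The 4 channel and calcium coupling genes were low, and 1 fell. Jph2, junctophilin 2, which ties calcium stores to the cell membrane, was at 13.6, 10.3 and 12.2 CPM in WT intestine and at 8.76, 5.91 and 5.78 CPM in tumours. All tumours were lower (log2 fold change -0.82, SE 0.226, edgeR adjusted p = 0.03), a call that, of the fits with 1 library left out, held only in that without DKO tumour 1 (0.0542 to 0.119 in the others). Kcnma1, the pore of the BK potassium channel, was at 7.65, 5.74 and 9.68 CPM in WT intestine and at 4.53, 7.45 and 5.34 CPM in tumours. Kcnmb1, its smooth muscle beta subunit, was at 5.1, 3.46 and 6.3 against 4.47, 2.55 and 3.33 CPM. Cacna1c, the L-type calcium channel pore, was at 3.78, 5.66 and 5.65 against 2.5, 3.62 and 5.04 CPM. These 3 genes overlapped between groups and did not pass the test (edgeR adjusted p = 0.237 to 0.304), with log2 fold changes of -0.42, -0.52 and -0.45.

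Both muscarinic receptor genes fell. Chrm2, the M2 receptor and the more abundant of the muscarinic receptors of gut muscle, was at 4.06, 5.51 and 5.13 CPM in WT intestine and at 2.68, 1.61 and 3.19 CPM in tumours. All tumours were lower (log2 fold change -0.98, SE 0.3, edgeR adjusted p = 0.0423). Chrm3, the M3 receptor that couples to contraction, was at 3.69, 2.99 and 3.05 CPM in WT intestine and at 1.67, 0.201 and 0.815 CPM in tumours. The tumour values rest on 28, 3 and 11 reads, and DKO tumour 2 was the lowest (log2 fold change -1.82, SE 0.558, edgeR adjusted p = 0.0421). The Chrm2 call ended without any library but WT intestine 1 (edgeR adjusted p = 0.0619 to 0.134), and the Chrm3 call without any WT library or DKO tumour 3 (0.0867 to 0.129).

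The transcription regulators did not pass the test. Myocd, myocardin, was at 1.8, 1.73 and 3.18 CPM in WT intestine and at 2.26, 1.14 and 2.59 CPM in tumours. The groups overlapped at these low levels (log2 fold change -0.18, SE 0.4, edgeR adjusted p = 0.764), and the sign turned under library totals. Srf, whose promoter boxes are printed above, was at 48.9, 39.9 and 45.3 CPM in WT intestine and at 40.9, 67.1 and 56 CPM in tumours. DKO tumours 2 and 3 exceeded every WT library and DKO tumour 1 lay within the WT range (log2 fold change 0.29, SE 0.194, edgeR adjusted p = 0.284).

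Per kilobase of exon, which lets genes be compared, the order of mean levels shifted between the groups. In WT intestine Myl9 led at 111 CPM per kb, followed by Tpm1 at 97.6, Acta2 at 82.1, Tagln at 69.5, Actg2 at 59.6, Mylk at 56.6, Csrp1 at 53.4 and Myh11 at 40.3 CPM per kb. In tumours Tpm1 led at 95.5 CPM per kb, followed by Csrp1 at 68.1, Acta2 at 63.3, Myl9 at 55.3, Actn1 at 50.3, Tagln at 44.9 and Actg2 at 36.7 CPM per kb. Actn1 moved from rank 16 to rank 5 of 32, Pdlim7 from 23 to 15 and Cnn1 from 12 to 18. The order is a description of means, and it rests on exon lengths that join all annotated transcripts of a gene.

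Ratios to Myh11 within each library compare the other genes with a member that itself fell, and they do not depend on library scaling. They also carry the spread of Myh11 between libraries. They are ratios of CPM, not corrected for exon length, so they do not rank the genes against Myh11 by abundance. Of the other 31 genes, 20 overlapped between groups, 9 were higher in every tumour and 2 were lower in every tumour. Among all 13735 genes compared, 52.3% were higher and 2.58% lower. An overlap does not show that a gene moved with Myh11. The 20 include Cnn1 and Pgm5, whose mean log2 ratios differed by -0.89 and -0.73. The mean log2 ratio differed least between groups for Jph2, Tpm2, Des, Ldb3 and Lmod1, by 0.00, -0.02, 0.04, 0.09 and 0.10. The ratio of Ldb3 to Myh11 nevertheless varied from library to library, from 0.307 to 0.631 in WT intestine and from 0.392 to 0.664 in tumours. Ldb3 itself was at 123 to 140 CPM in WT intestine and 76.1 to 79.1 CPM in tumours. Myh11 varied more, at 222 to 401 CPM in WT intestine and 119 to 196 CPM in tumours. The 9 higher genes were Acta2, Ppp1r14a, Cald1, Smtn, Flna, Actn1, Csrp1, Pdlim7 and Srf. Acta2 stood at 0.502, 0.681 and 0.639 of the Myh11 level in WT intestine and at 0.786, 0.968 and 0.759 in tumours. Cald1 stood at 0.255, 0.454 and 0.367 of it in WT intestine and at 0.84, 0.842 and 0.642 in tumours. Synm was lower relative to Myh11, at 0.193, 0.295 and 0.262 in WT intestine and at 0.178, 0.131 and 0.116 in tumours, and Chrm3 was the other gene lower in every tumour. With 3 against 3 libraries the exact permutation test (2-sided) cannot go below p = 0.1, the value of these 11 genes (adjusted p = 0.282 over the 31 genes), so no ratio passed the threshold.

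**Figure D3:**
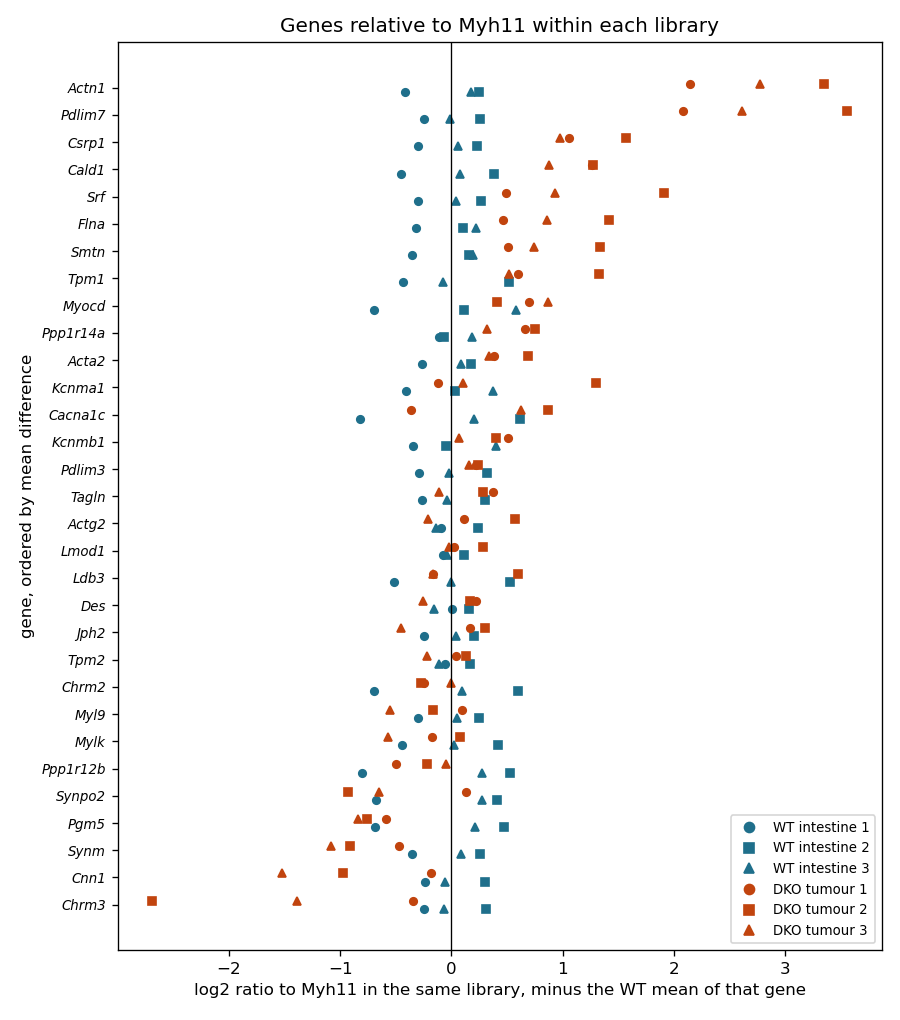
Log2 ratio of each gene to Myh11 in the same library, minus the WT mean of that gene, for each of the 6 libraries, ordered by the mean difference. Actn1 (2.76) and Pdlim7 (2.75) are farthest above 0, and Chrm3 (-1.47) is farthest below.

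Among the tumours, DKO tumour 1 was the highest in 11 of the 15 genes that fell (73.3%), and DKO tumour 2 the lowest in 12 (80%). Over all genes that fell these shares were 53.8% and 46.3%, so the tendency was there in fallen genes at large, too. Over all 13866 genes tested they were 38.2% and 34.8%. Mylk, Synm, Pgm5 and Ldb3 fell, and Actn1 and Pdlim7 rose, under every one of the 19 alternatives run. Without WT intestine 1, 2 or 3, 10, 10 and 7 of the 32 genes fell, beside 14.2%, 7.48% and 9.34% of all genes. Without DKO tumour 1, 2 or 3, 14, 7 and 5 fell, beside 15.2%, 9.52% and 6.17% of all genes. Under library totals, where the median of all genes was 0.27, 6 fell and 3 rose, and under upper-quartile factors 10 fell and 3 rose. Library totals ended the calls of Actg2, Myh11, Ppp1r12b, Tpm2, Lmod1, Des, Jph2, Chrm2 and Chrm3 (edgeR adjusted p = 0.051 to 0.118). Upper-quartile factors ended those of Myh11, Lmod1, Des, Chrm2 and Chrm3 (edgeR adjusted p = 0.0528 to 0.0706). Under library totals, relative to the median of all genes, the median of the set was -0.67, beside -0.68 on the TMM scale. A change of scaling shifts the log2 fold changes of all genes nearly alike. These 2 values were therefore bound to be close and are no separate check.

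**Figure D4:**
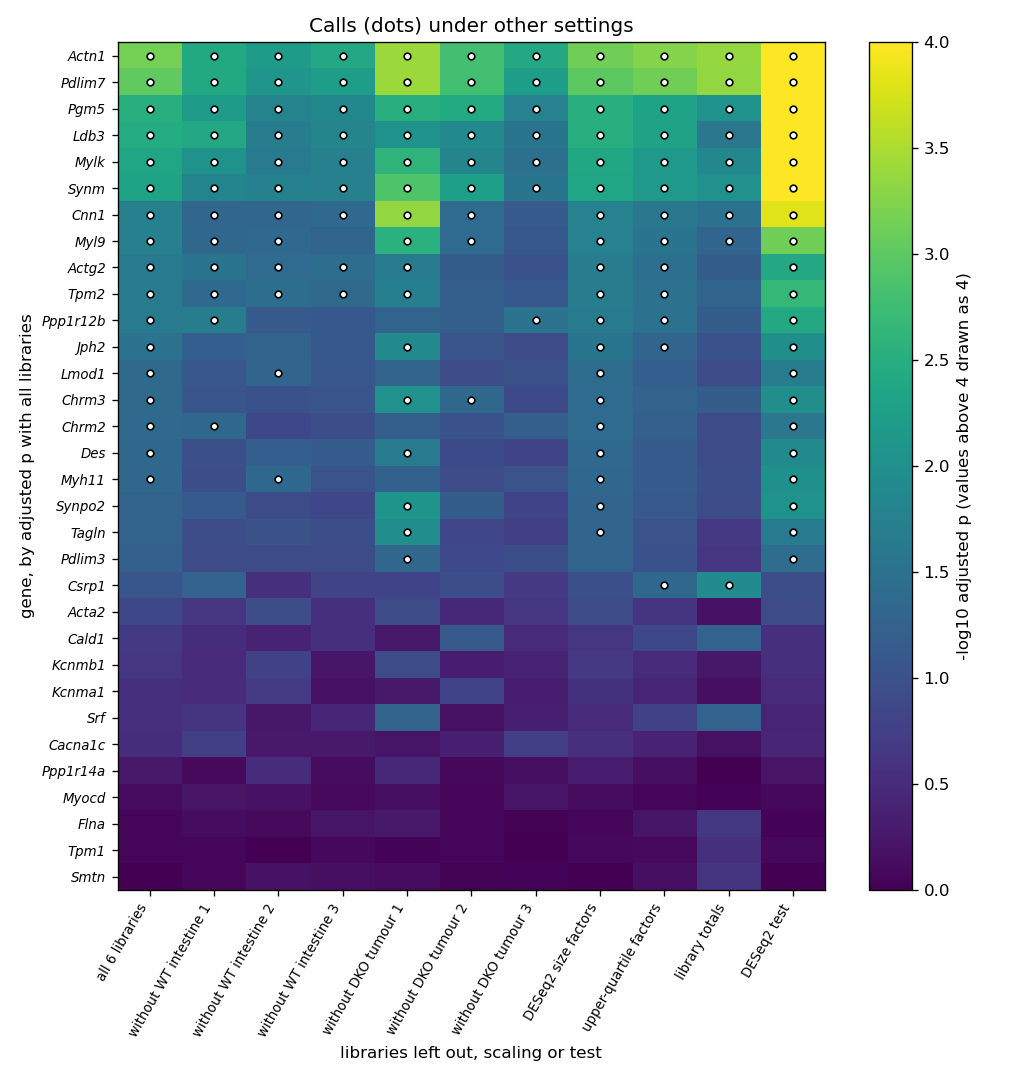
Adjusted p of each gene (rows, as -log10, colours capped at 4) with all 6 libraries, without each library and under each other scaling or test (columns), with a dot where the adjusted p was under 0.05. Mylk, Synm, Pgm5, Ldb3, Actn1 and Pdlim7 carry a dot in every column.

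Genes that act around the contractile apparatus moved less in one direction. Over 8 further lists, 134 genes were tested, of which 21 fell (15.7%) and 22 rose (16.4%), near the shares of all genes (13.8% and 15.9%). Their median log2 fold change was -0.03. Under library totals 10 of them fell and 34 rose. Among 21 genes of calcium stores and other channels 5 fell and 5 rose (23.8% each). The falls there were the ryanodine receptor genes Ryr2 and Ryr3 (log2 fold changes -1.01 and -1.83), the store proteins Casq2 and Pln (-1.44 and -1.32) and Trpc4 (-1.36). The rises there included Kcnj8 and Abcc9, the subunits of a potassium channel of pericytes (1.71 and 0.82). Of 7 genes of nitric oxide and cyclic GMP relaxation 2 fell (28.6%), Mrvi1 (-0.85) and Pde5a (-0.76). Of 8 heat shock and energy genes 3 fell (37.5%), Hspb6 (-1.09), Ldhb (-1.42) and Ckm (-2.39), and none rose.

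Myh9, a non-muscle myosin heavy chain, rose (404, 385 and 468 CPM in WT intestine, 579, 1030 and 969 CPM in tumours, log2 fold change 1.04, edgeR adjusted p = 0.0168), with no overlap between groups. The other non-muscle heavy chains, Myh10 (0.53, higher in every tumour) and Myh14 (0.27, overlapping), did not pass the test (edgeR adjusted p = 0.113 and 0.449). Of 24 other actin-binding genes 4 rose (16.7%) and 3 fell (12.5%), near the 15.9% and 13.8% of all genes. Tpm4 (1.33), Cnn2 (1.21) and Tpm3 (0.68), tropomyosins and a calponin of non-muscle cells, were among the rises, and Myom1 (-0.97) and Tmod1 (-1.06) were among the falls. The other 17 did not pass the test. Among these were Cnn3 (-0.60, lower in every tumour), Tagln2 (0.41, higher in every tumour) and Actn4 (0.13, overlapping). In the dystrophin, caveola and adhesion list of 21, 4 rose (19%), led by Itga5 (1.52) and Parva (0.84), and 2 fell (9.52%), Dtna (-0.96) and Sdpr (-0.84). Of 12 other receptors of gut muscle, 2 rose (16.7%), Ednra (1.95) and Tacr1 (1.37), and 1 fell (8.33%), P2ry1 (-0.46). Of 17 SRF cofactors and mesenchymal transcription factors, 3 rose (17.6%), Notch3 (1.62), Foxf1 (0.83) and Nkx2-3 (0.75). In that list 2 fell (11.8%), Tbx3 (-1.36) and Hand1 (-1.18).

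**Figure D5:**
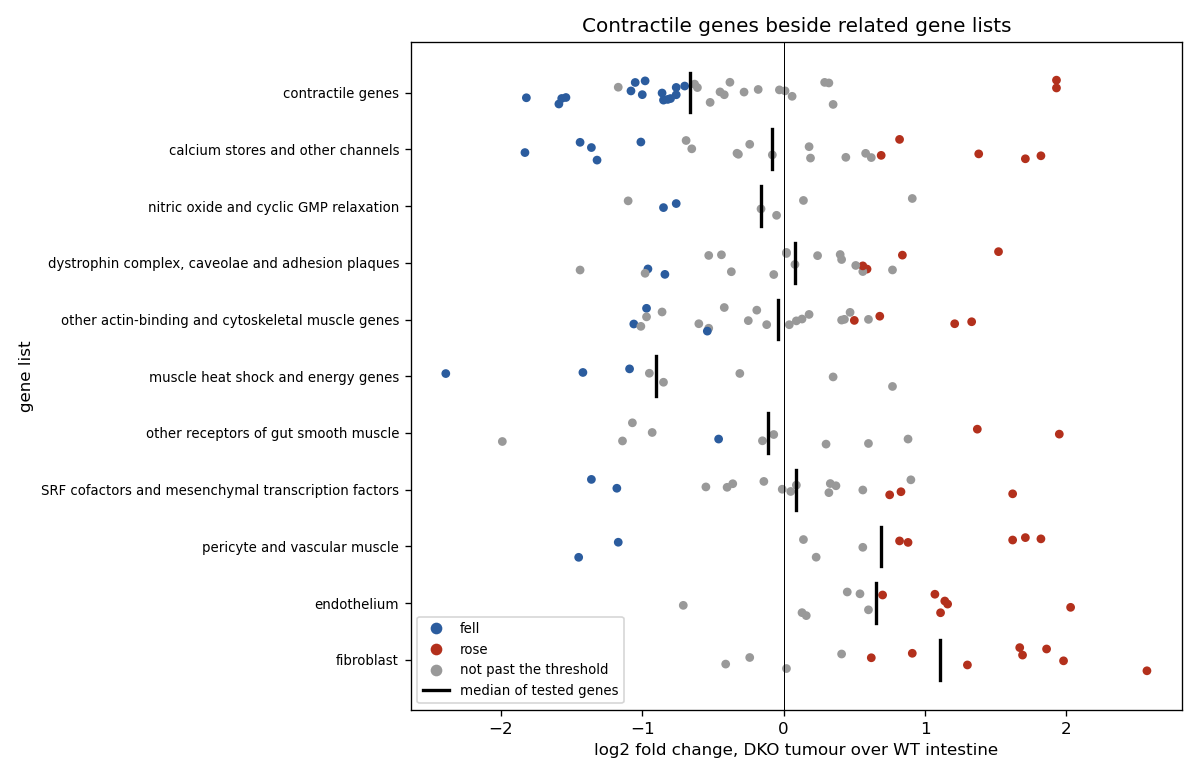
Log2 fold change of each tested gene of the 32-gene set, of 7 of the 8 related lists and of pericyte, endothelial and fibroblast markers, coloured by call, with a black line at each list's median. The set's median is -0.66, that of the heat shock and energy genes -0.90, and the medians of the other 6 lists plotted from these 8 lie between -0.16 and 0.09.

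Markers of other cells that share genes with smooth muscle also differed. The summed level of 12 fibroblast markers was 405 to 595 CPM in WT intestine and 1090 to 1660 CPM in tumours. Of them 8 rose (66.7%, against 15.9% of all genes), among them Col1a1 (log2 fold change 2.57), Col1a2 (1.98) and Pdgfra (1.86). The sum of 12 pericyte and vascular muscle markers was 115 to 169 against 165 to 212 CPM. Of the 10 tested, 5 rose (50%), Pdgfrb (1.82), Notch3 (1.62), Kcnj8, Mcam and Abcc9. Rgs5 (-1.17) and Sncg (-1.45) fell (20%, against 13.8% of all genes). The sum of 12 endothelial markers was 118 to 137 against 174 to 247 CPM, and 6 rose (50%) and none fell. The sum of 10 epithelial markers was 14200 to 18400 against 13000 to 19100 CPM. The part of these cells in the levels of the muscle genes was not tested.

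The remaining marker lists gave mixed differences. For enteric neurons the sum of 13 markers was 52.9 to 63 against 47.9 to 56.5 CPM. Among 11 tested there was 1 rise and 1 fall (9.09% each, against 15.9% and 13.8% of all genes). For interstitial cells of Cajal it was 44.3 to 57.1 against 79.4 to 96.7 CPM, and Kit (-1.53) fell while Ano1 (2.67) rose. Without Ano1, a choice made after seeing the data, the sum of the other 6 markers was 36.7 to 46.1 against 24.6 to 34.6 CPM, so the direction of that sum rests on Ano1. Enteric glia gave 147 to 291 against 160 to 236 CPM, with 2 rises among 4 tested (50%). Mesothelium gave 1040 to 1450 against 2560 to 4230 CPM, nearly all of it Krt19, which is also in the epithelial list. Of the other mesothelial markers, Msln rose (6.59), while Upk1b (0.84) and Upk3b (-0.75) did not pass the test. Wt1 and Lrrn4 missed the count filter, at means of 0.403 and 0.958 CPM in WT intestine and 0.0446 and 0.208 CPM in tumours. Leukocyte markers gave 179 to 194 against 127 to 216 CPM. For striated muscle the sum of 19 markers was 125 to 202 against 105 to 136 CPM, most of it Des, and Myh1 and Myl2 were at 0 in every library. Acta1 (2.69) and Tnni2 (5.70) rose and Ckm and Mylpf fell in that list. The sum of 5 proximal intestinal markers was 169 to 223 CPM in WT intestine and 4450, 236 and 1320 CPM in DKO tumours 1 to 3, and that of 5 distal markers 370 to 431 against 108, 354 and 108 CPM.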

How the data were processed

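Poly(A) RNA of whole tissue was made into directional libraries and read as single-end 75-base reads, per the labels' protocols. The authors deposited a table of raw counts in which each mouse has its own column. STAR, DESeq2 and mm10 are named in the submitters' processing notes. The sources used here do not name the read counter, the annotation or how strand was set. The deposited sheet's title names normal DKO tissue and its headers the tumours, and the headers were followed. Of 23420 rows, 27 carried a date in place of a gene name (0.218% to 0.241% of counts) and were set aside.

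The 13866 genes reaching 10 counts in at least 3 libraries were tested with edgeR 4.0.16 (quasi-likelihood, TMM scaling, Benjamini-Hochberg over all genes) in R 4.3.3. CPM values are on the TMM scale. Common BCV was 0.227. The fit was tested on simulated data. The labels name separate mice, and no pair of libraries agreed within sampling noise. Replicate numbers were taken as not pairing the mice. Same-numbered libraries had correlations of 0.0152, 0.0104 and -0.0304 in their deviations from the group means. Differently numbered ones ran from -0.104 to 0.0956. With 3 libraries per group these values cannot exclude a weak pairing. Alternatives were other scalings, filters, DESeq2 1.42.0, a replicate block and leaving out each library.

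The members, roles and lists were chosen with earlier results of these data known. For that reason no p is given for a score over the members, and a planned permutation test of their summed share was not run. All members were to be accounted for, 22 and any other called member with the value in every library, and the 4 or fewer genes of smallest adjusted p in each list with a call, of which the text prints part. Further list genes it names were chosen after their values were seen. Coordinates and exon lengths are from GENCODE M21, promoter sequences from RefSeq. Some results of the related lists are not reported here.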

Additional observations from a re-analysis of the deposited data

How the results depend on the processing

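The falls in the set (15) came to 6 under library totals, and to 5 to 14 when single libraries were left out. When the gene filter was not applied anew ("genes kept"), the lowest counts were 5 (without DKO tumour 3) and 7 (without WT intestine 3 or DKO tumour 2), and the highest was 16 (without DKO tumour 1). The falls among the 8 related lists (21) came to 10 under library totals, 32 with the DESeq2 test and 6 to 27 without single libraries, and the rises (22) to 34 under library totals and 8 to 24 without single libraries. With genes kept, the falls were 9 and 10 without WT intestine 2 and 3 and 6 without DKO tumour 3, and the rises 9, 14 and 8 without WT intestine 2, DKO tumour 2 and DKO tumour 3. Over all genes, library totals gave 1065 falls and 3779 rises in place of 1911 and 2211, and single left-out libraries 838 to 2129 falls and 1028 to 2368 rises. Log2 fold changes near 0 turned sign. Tpm1 was 0.23 under library totals, 0.06 under upper-quartile factors and -0.07 to 0.01 without single libraries (0.02 with genes kept, without WT intestine 2). Smtn was -0.01 with DESeq2 size factors, -0.01 with the DESeq2 test and -0.12 to 0.11 without single libraries (-0.11 and -0.05 with genes kept, without WT intestine 2 and DKO tumour 3). Myocd was 0.07 under library totals and -0.39 to 0.19 without single libraries (0.19 and 0.10 with genes kept, without WT intestine 3 and DKO tumour 2). Flna was -0.09 to 0.17 without single libraries (-0.08 and -0.04 with genes kept, without WT intestine 2 and DKO tumour 3). Relative to Actg2 in place of Myh11, 4 genes were lower in every tumour instead of 2. With 1 inner letter free, a choice added after seeing the data, 8 genes held a CArG box instead of 3. The cause of these changes was not tested, beyond that leaving out a library leaves fewer samples. With the replicate block, 15 of the set fell (Chrm2 lost, Tagln gained), and 1508 genes fell and 1788 rose in all. Of 604 alternative values of the members, 476 kept direction and side of the threshold, 93 lost their call, 15 gained one and 20 turned sign. Genes under 5 CPM, such as Chrm3 and Myocd, rest on few reads.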
